A study of Mus musculus with 48 samples.

Results

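The cell cycle and DNA replication genes described here are 37 genes picked by name from the 34183 genes in the tables. They hold cyclins and their kinases, the helicase and clamp that copy DNA, the enzymes that make its building blocks, and the kinases, motors and checkpoint proteins of mitosis. All 37 were matched by symbol. Their RNA levels were read in 48 libraries of neuron-enriched cell cultures from wild-type adult mouse dorsal root ganglion, where cell bodies of sensory neurons lie beside glia, vessels and connective tissue. The cells were isolated, grown in Neurobasal-A with B27, transfected straight away and harvested at 42 h. Of the 12 groups of 4 libraries, 7 received a pool of siRNAs against Atf3, Atf4, Jun, Stat3, Klf6, Rest or Alyref, and their reference was a control pool (siCONTROL). A further 2 groups received synthetic mRNA for Atf4 with Cebpg or for Atf4 alone, and their reference was mRNA for green fluorescent protein (GFP). The last group, untransfected, was taken at time 0 and is the reference for siCONTROL in the culture comparison, which therefore holds both time and transfection. Each target had 1 siRNA pool, the labels name no cell sort, and they do not say whether replicates came from separate animals or cultures. The p-values therefore measure the spread between these libraries, which may be technical.

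A cell that divides passes through G1, S phase, in which DNA is copied, G2 and mitosis. D-type cyclins drive G1, E2F factors then switch on the genes of S phase, and a later wave of genes, held off by the DREAM complex until it is relieved, equips G2 and mitosis. Mature sensory neurons are postmitotic, whereas the satellite glia, Schwann cells, fibroblasts, endothelial cells and macrophages that share the ganglion can divide. Some of these genes also work outside division: D-type cyclins and Pcna, the sliding clamp used in DNA repair as well as replication, are known from cells that do not cycle.

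Levels are given as CPM, counts relative to library totals scaled by TMM, a normalisation against library composition. Libraries held 1539198 to 6621566 counts among the 36 siRNA and time 0 libraries and 2097054 to 5959173 among the 12 mRNA libraries. The siRNA and mRNA libraries stand in separate tables, were scaled apart and were tested only within their own. Each targeted transcript was 16.8% to 36.3% of control in its own knockdown group, with no overlap with siCONTROL. A gene was called when its adjusted p was below 0.05 in the quasi-likelihood F test of edgeR, with Benjamini-Hochberg adjustment over every gene tested. In bulk RNA, fewer cells of a type and less RNA per cell cannot be told apart, and the cells that carried these transcripts were not measured.

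The upstream sequences of 4 genes are shown because they hold short words known to be bound by factors that time this programme, 2 of them from S phase genes (Mcm6, Mcm5) and 2 from later genes (Cdk1, Top2a). Each is the 250 bases before the annotated start in RefSeq (GRCm38.p6, an older build than the GRCm39 used by the authors), read 5′ to 3′ along the gene. Capitals mark E2F words (TTTCCCGC, TTTCGCGC, TTTGCCGC or TTTGGCGC), the cell cycle homology region (CHR, TTTGAA), to which DREAM binds, and the CCAAT box (CCAAT) bound by NF-Y, on either strand. The 4 windows lie at chr1:128359706-128359955 on the minus strand, chr8:75109259-75109508 on the plus strand, chr10:69352913-69353162 on the minus strand and chr11:99024190-99024439 on the minus strand.
Mcm6: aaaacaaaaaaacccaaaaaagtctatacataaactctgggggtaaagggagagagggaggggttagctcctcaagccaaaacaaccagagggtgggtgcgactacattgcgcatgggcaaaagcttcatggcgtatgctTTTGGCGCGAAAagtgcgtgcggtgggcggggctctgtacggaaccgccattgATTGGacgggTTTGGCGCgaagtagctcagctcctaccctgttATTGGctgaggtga
Mcm5: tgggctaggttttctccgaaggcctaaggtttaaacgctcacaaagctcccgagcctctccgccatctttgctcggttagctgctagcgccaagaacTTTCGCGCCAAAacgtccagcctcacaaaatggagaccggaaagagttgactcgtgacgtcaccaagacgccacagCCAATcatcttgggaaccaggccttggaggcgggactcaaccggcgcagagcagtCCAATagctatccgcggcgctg
Cdk1: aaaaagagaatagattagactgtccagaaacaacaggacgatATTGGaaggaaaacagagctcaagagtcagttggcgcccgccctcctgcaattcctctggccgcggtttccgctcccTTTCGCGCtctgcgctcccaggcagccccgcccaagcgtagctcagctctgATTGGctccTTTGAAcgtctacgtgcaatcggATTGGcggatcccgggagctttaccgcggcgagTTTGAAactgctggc
Top2a: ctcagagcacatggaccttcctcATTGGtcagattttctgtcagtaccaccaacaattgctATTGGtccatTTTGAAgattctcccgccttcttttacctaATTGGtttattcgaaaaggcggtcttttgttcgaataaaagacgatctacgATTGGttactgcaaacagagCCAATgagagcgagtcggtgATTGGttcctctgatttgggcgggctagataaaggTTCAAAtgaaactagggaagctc

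In Mcm6 and Mcm5 an E2F word on one strand overlapped another on the opposite strand. Cdk1 held 1 E2F word, 2 CHR words and 3 CCAAT boxes, and Top2a held 2 CHR words and 6 CCAAT boxes with no E2F word in this window. Of the 37 genes, 29 had an upstream sequence in the RefSeq table. An E2F word stood in 5 of the 29 (17.2%), against 1.86% of all 32851 promoters of that length. A CHR word stood in 8 of 29 (27.6%) against 16.0% of all, and a CCAAT box in 23 of 29 (79.3%) against 33.8% of all. Words of different motifs did not overlap. By role, 3 of 6 licensing and fork genes held an E2F word, and both mitotic exit genes and both proliferation markers held a CHR word. Other roles differed: 0 of 4 nucleotide supply genes held an E2F word, and a CHR word stood in 0 of 5 mitotic kinase and checkpoint genes and 1 of 4 centromere and spindle genes. A match is a description of letters, not of a bound site.

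Most of these genes were more abundant after 42 h in culture (siCONTROL) than at time 0. The called rises lay mainly among the G1 cyclins, the helicase genes and clamp, Ccna2, Cdk1 and the proliferation markers. Of the 37, 28 passed the filter on low counts, 18 of them rose and 1, E2f1, fell. Over all 13448 genes tested, 57.9% were called, 28.7% as higher and 29.2% as lower. The median log2 fold change of the members tested was 1.21, against 0.01 over all genes tested. Rises were largest for Rrm2, Cdk1, Top2a, Ccna2 and Ccnd1, at 9.77-fold to 14.0-fold. A gene scarce at time 0 could pass the filter through siCONTROL alone and then be called only as higher. Rrm2, Cdk1, Top2a and Ccna2 had 14, 16, 10 and 9 counts over the libraries at time 0, and the counts and median above include such genes. The 9 others, mostly mitotic genes, were too scarce to pass the filter.

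**Figure D1:**
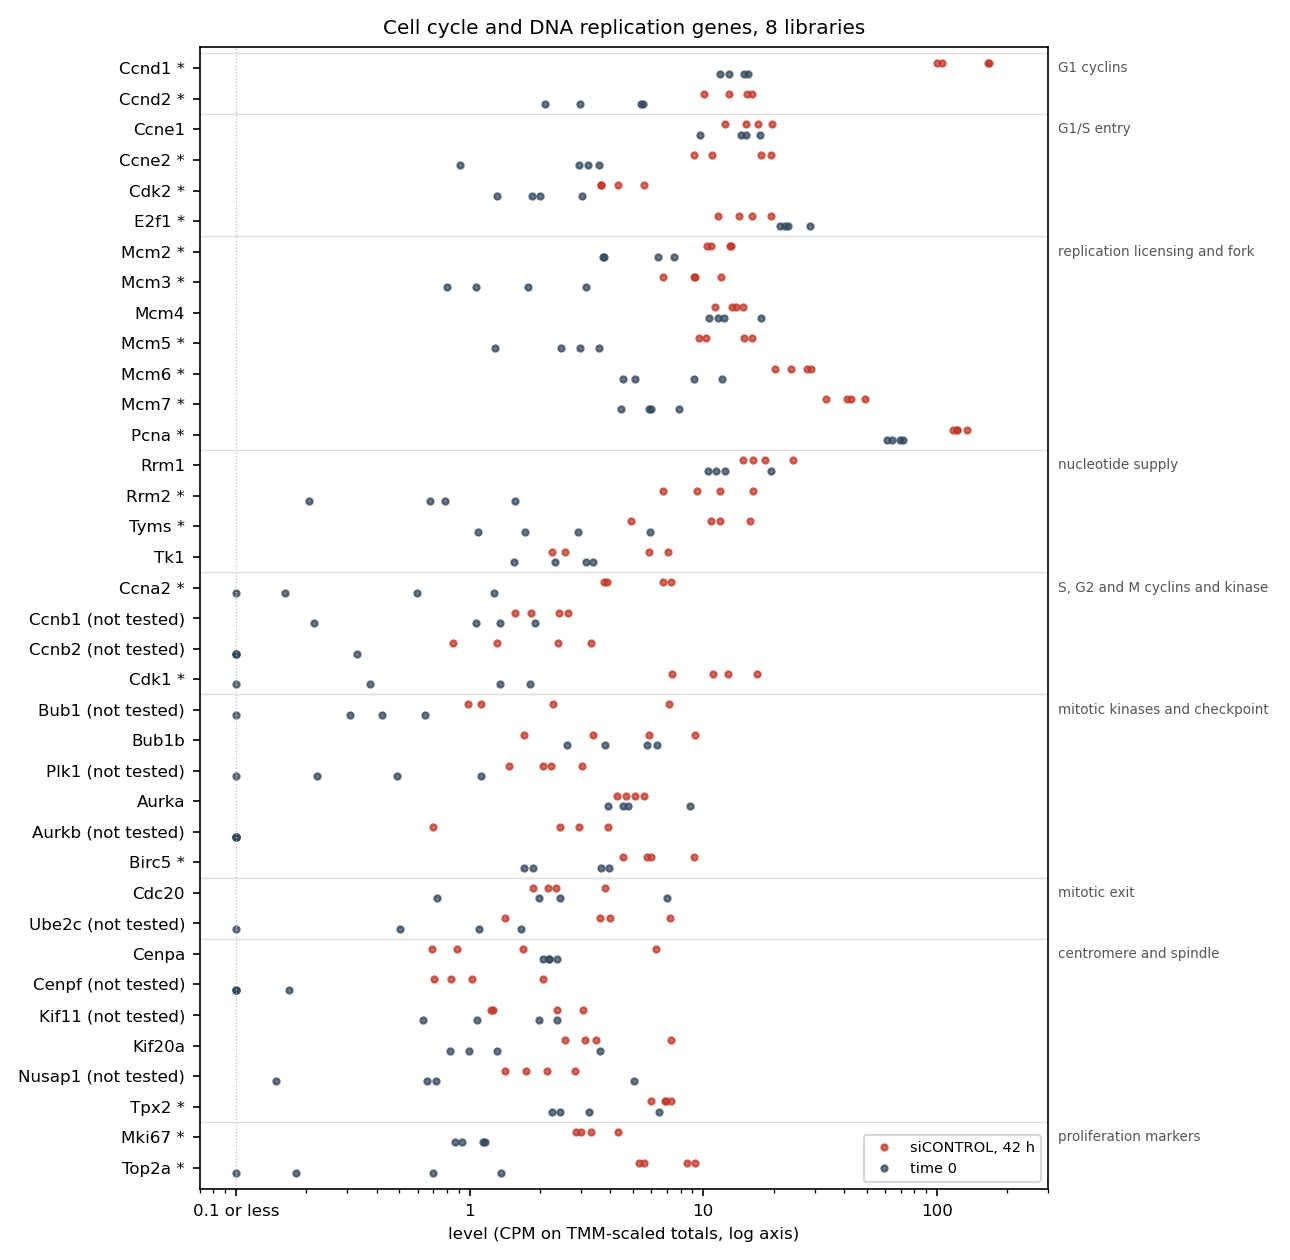
Level of each gene in the 4 siCONTROL libraries at 42 h (red) and the 4 libraries at time 0 (dark), in CPM on a log axis, grouped by role. Values of 0.1 CPM or less are drawn at 0.1, a star marks an adjusted p below 0.05, and most red points lie to the right of the dark ones, E2f1 being the called exception.

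Among the D-type cyclins, which bind Cdk4 and Cdk6 in G1, Ccnd1 had the highest mean level of the set in siCONTROL, though Pcna lay above it in 2 of the 4 libraries. It stood at 99.8, 105, 168 and 166 CPM in the siCONTROL libraries, against 14.9, 11.8, 12.9 and 15.5 CPM at time 0. The groups lay far apart, with a log2 fold change of 3.29 ± 0.21 (SE, adjusted p = 2.24e-07). Ccnd2 stood at 15.4, 10.04, 16.2 and 12.9 CPM in siCONTROL, against 2.10, 2.96, 5.55 and 5.39 CPM at time 0. It rose 3.33-fold with no overlap (adjusted p = 0.000428).

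The genes of S phase entry did not move together. Cyclin E2 (Ccne2), a partner of Cdk2, stood at 17.7, 9.16, 10.9 and 19.6 CPM in siCONTROL, against 3.59, 3.23, 2.95 and 0.912 CPM at time 0, a 5.24-fold rise (adjusted p = 0.00021). Its relative Ccne1 was near its starting level, at 12.3 to 19.6 CPM in siCONTROL and 9.74 to 17.5 CPM at time 0 (log2 fold change 0.18 ± 0.20 SE, adjusted p = 0.471). E2f1, the activating factor of the E2F family, went the other way, with 16.1, 19.5, 11.6 and 14.2 CPM in siCONTROL against 23.1, 28.6, 21.2 and 22.4 CPM at time 0. Every siCONTROL library lay below every library at time 0, and E2f1 was 1.56-fold lower (adjusted p = 0.00849). Cdk2 rose 2.06-fold (adjusted p = 0.0161), but missed the threshold without siCONTROL replicate 4 (adjusted p = 0.0537), time 0 replicate 1 (0.0519) or time 0 replicate 4 (0.053).

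Of the 6 Mcm genes, subunits of the replicative helicase, 5 rose and Mcm4 did not pass (log2 fold change 0.01 ± 0.19 SE, adjusted p = 0.968). Mcm7 stood at 42.9, 33.5, 49.2 and 41.3 CPM in siCONTROL, against 4.47, 7.86, 5.88 and 5.99 CPM at time 0. It rose 6.87-fold (adjusted p = 3.73e-07). Mcm3 stood at 6.72, 9.25, 9.12 and 11.9 CPM in siCONTROL, against 3.15, 0.799, 1.77 and 1.07 CPM at time 0, a 5.24-fold rise (adjusted p = 0.000159). Mcm5 and Mcm6, whose upstream sequences are shown above, rose 4.82-fold and 3.22-fold (adjusted p = 8.63e-05 and 0.000282). Mcm7 also held an E2F word upstream, whereas Mcm3 and Mcm2 held none. Mcm2 had the smallest called rise of the 5, with 10.4, 13.1, 10.8 and 13.1 CPM in siCONTROL against 6.40, 3.72, 3.78 and 7.50 CPM at time 0 (2.22-fold, adjusted p = 0.00262). For each of the 5 the groups did not overlap, while Mcm4 had 11.3 to 14.8 CPM in siCONTROL and 10.6 to 17.6 CPM at time 0. On the CPM scale, which here is close to a level per transcript length, Mcm7 was the highest of the 6 at 42 h in every siCONTROL library.

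Pcna stood at 117, 123, 134 and 122 CPM in siCONTROL, against 69.3, 64.5, 71.6 and 61.1 CPM at time 0. It was abundant in both groups, the groups did not overlap, and it rose 1.86-fold (log2 fold change 0.89 ± 0.08 SE, adjusted p = 2.9e-06).

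Among the enzymes of nucleotide supply, the ribonucleotide reductase subunits differed. Rrm2, the subunit made in S phase, stood at 6.72, 9.45, 11.8 and 16.3 CPM in siCONTROL, against 1.56, 0.674, 0.205 and 0.782 CPM at time 0. Its log2 fold change of 3.80 ± 0.45 (SE, adjusted p = 2.79e-05) was the largest of the genes tested here, though it rests on 14 counts over the 4 libraries at time 0. Rrm1, the longer-lived large subunit, had 14.8 to 24.3 CPM in siCONTROL and 10.5 to 19.6 CPM at time 0 (adjusted p = 0.123). Thymidylate synthase (Tyms) rose 3.73-fold with overlapping groups (adjusted p = 0.00465), and thymidine kinase (Tk1) did not pass (adjusted p = 0.186).

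Cyclin A2 and the mitotic kinase Cdk1 were close to undetected at time 0. Cdk1 stood at 7.39, 12.8, 10.97 and 17.0 CPM in siCONTROL, against 0, 1.35, 0.376 and 1.81 CPM at time 0 (log2 fold change 3.73 ± 0.54 SE, adjusted p = 0.000131). Ccna2 stood at 3.75, 3.88, 6.76 and 7.26 CPM in siCONTROL, against 0.162, 0, 0.596 and 1.28 CPM at time 0 (3.39 ± 0.59 SE, adjusted p = 0.000456). At time 0 these rest on 16 and 9 counts in all, so the size of either fold is loosely set. The B-type cyclins, which bring Cdk1 into mitosis, were scarce in both groups and were not tested. Ccnb1 stood at 1.82, 1.56, 2.41 and 2.64 CPM in siCONTROL, against 1.06, 1.35, 1.90 and 0.217 CPM at time 0, and the groups overlapped.

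The proliferation markers rose. Top2a, the topoisomerase that untangles replicated chromosomes, stood at 5.33, 5.59, 8.54 and 9.22 CPM in siCONTROL, against 0.181, 0.697, 0 and 1.37 CPM at time 0 (log2 fold change 3.63 ± 0.58 SE, adjusted p = 0.000256). Mki67, the antigen Ki-67, stood at 2.85, 3.01, 3.31 and 4.31 CPM in siCONTROL, against 0.926, 1.17, 1.15 and 0.867 CPM at time 0 (3.20-fold, adjusted p = 0.00103). Neither pair of groups overlapped. Per transcript length, Mki67 at 42 h remained far below Pcna and Ccnd1 on the same CPM scale.

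Of the mitotic kinases and checkpoint genes, Birc5 (survivin, of the chromosomal passenger complex) rose 2.23-fold (adjusted p = 0.0149; 0.0507 without siCONTROL replicate 4). Bub1b, which restrains the anaphase-promoting complex, and Aurka, the spindle pole kinase, did not pass (adjusted p = 0.839 and 0.636), and Aurka had 4.26 to 5.60 CPM in siCONTROL against 3.90 to 8.76 CPM at time 0. The anaphase activator Cdc20 (adjusted p = 0.758) and the centromeric histone Cenpa (0.809) did not pass either, and Kif20a, a motor of cytokinesis, was 2.42-fold higher with an adjusted p of 0.0507. Tpx2, which assembles the spindle, rose 1.85-fold (adjusted p = 0.0441), but its call was lost in 7 of 8 repeats that left out 1 library, all but that without time 0 replicate 3, at an adjusted p of up to 0.115, and with no filter (0.0551).

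With no filter on low counts (21993 genes, 37.3% called in either direction), 6 of the 9 scarce genes were called as higher at 42 h. They were the B-type cyclin Ccnb2 (40 counts over the siCONTROL libraries and 2 over those at time 0), the kinases Bub1 (52 and 6), Plk1 (42 and 8) and Aurkb (52 and 0), the ubiquitin-conjugating enzyme Ube2c (84 and 15) and the kinetochore protein Cenpf (21 and 1), with adjusted p between 0.000999 and 0.034. Aurkb stood at 0.697, 2.44, 2.95 and 3.90 CPM in siCONTROL and at 0 in every library at time 0. Its siCONTROL mean lay 15.2-fold above a floor of 3 scaled counts over the group, which is no strict bound because scaled counts are not reads. Ccnb1 (adjusted p = 0.238), the spindle motor Kif11 (0.599) and the spindle protein Nusap1 (0.756) were not. Each of these 9 had under 100 counts over the 8 libraries. Genes with so few counts at time 0 could hardly be called as lower. The 37.3% covers both directions and is therefore no like measure for the 6 called as higher.

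The wider cell cycle lists are read against the 28.7% of all genes called higher and the 29.2% called lower in the same comparison. Of 7 CDK inhibitors, 5 were tested, 3 rose and 2 fell. Cdkn1a, the inhibitor induced by p53, had the largest rise of them at 13.3-fold (820 ± 58.7 CPM in siCONTROL and 61.4 ± 5.13 CPM at time 0, SD, n = 4 each, adjusted p = 3.18e-10), and Cdkn2d and Cdkn1b fell (log2 fold change -0.66 and -0.48). Of 15 further G1 genes 12 were tested, 4 rose and 2 fell: Cdk4 rose 2.93-fold and Cdk6 2.79-fold, while E2f2 fell by 1.67 and Tfdp2 by 0.91 on the log2 scale. Of 38 further replication genes 35 were tested, 11 rose and 4 fell, the largest rises being those of Uhrf1 (12.9-fold), which guides maintenance methylation, and of the licensing factor Cdt1 (12.7-fold), followed by Chaf1b (3.22-fold) and Dbf4 (2.86-fold). Of 43 further mitotic genes 26 were tested, 12 rose and 3 fell, with Kif22 (11.3-fold), the separase Espl1 (7.49-fold), Spc25 (5.20-fold) and Prc1 (4.14-fold) in the lead. The median log2 fold change of the 4 lists ran between 0.13 and 1.03, against 0.01 over all genes. As for the members, a gene scarce at time 0 could pass the filter through siCONTROL alone and then be called only as higher. The counts and medians of these lists can include such genes, and 17 of the 43 mitotic genes did not pass the filter. The rises of Espl1 and Spc25 are loosely set (log2 fold change 2.90 ± 0.83 and 2.38 ± 0.85 SE).

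The cell type marker lists moved in different directions beside these genes. The macrophage sum and the endothelial and mural sum rose without overlap, and the neuronal, satellite glia, Schwann cell and red cell sums fell without overlap. The fibroblast and myeloid sums overlapped between the groups. Of the neuronal markers 0 of 10 rose and 7 fell (edgeR), and their summed level was 11473 to 13886 CPM in siCONTROL against 16389 to 17537 CPM at time 0. Satellite glia markers rose in 2 and fell in 5 of 8 (763 to 887 CPM in siCONTROL, 4533 to 5635 CPM at time 0), while 7 of 8 Schwann cell markers were lower and none higher (1245 to 1476 CPM in siCONTROL, 1952 to 2346 CPM at time 0). Among the satellite glia markers Sox10 and Glul rose (1.89-fold and 1.37-fold), and Fabp7 and Apoe fell most (41.6-fold and 15.3-fold). Fibroblast markers rose in 3 and fell in 2 of 7 tested, among them Postn, 3.38-fold higher, and Apod, 5.66-fold lower (136 to 279 CPM in siCONTROL, 269 to 489 CPM at time 0). Endothelial and mural markers rose in 4 and fell in 3 of 9 (212 to 270 CPM in siCONTROL, 160 to 206 CPM at time 0). The endothelial Pecam1 and Cdh5 were 5.34-fold and 3.56-fold higher. The endothelial Flt1 was 1.94-fold lower, and the mural Myh11 and Rgs5 were 3.51-fold and 1.52-fold lower. Macrophage markers rose in 2 and fell in 2 of 4 tested (27.3 to 46.8 CPM in siCONTROL, 11.01 to 17.1 CPM at time 0): Cd68 and Csf1r were higher, C1qa and C1qb lower, and the pan-leukocyte gene Ptprc rounded to 0 counts in all 4 siCONTROL libraries. Myeloid precursor and neutrophil markers rose in 1 and fell in 1 of 3 tested (11.1 to 15.4 CPM in siCONTROL, 12.4 to 24.7 CPM at time 0), and red cell markers fell in 4 of 4 tested (4.38 to 11.8 CPM in siCONTROL, 172 to 215 CPM at time 0). The part of cell composition in the rise of the cell cycle genes was not tested.

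**Figure D2:**
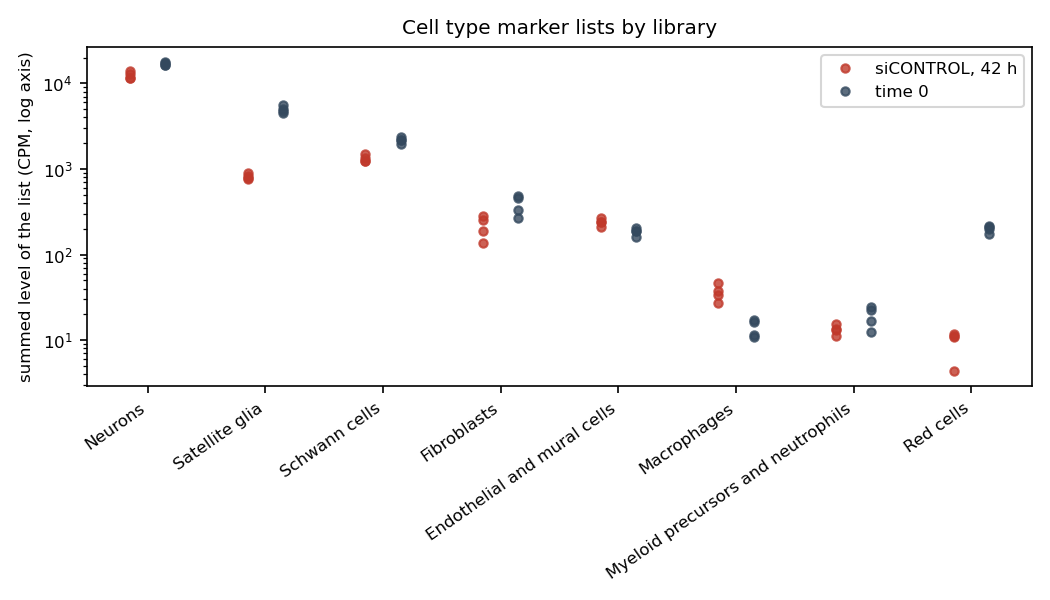
Summed level of each cell type marker list in the 4 siCONTROL libraries at 42 h (red) and the 4 libraries at time 0 (dark), in CPM on a log axis. The satellite glia, Schwann cell and neuronal sums were lower at 42 h, and the macrophage and endothelial sums were higher.

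The 7 knockdowns were each set against the same 4 siCONTROL libraries, so their results are not independent of one another, and each is given with its own values. All 37 genes passed the filter in that fit. Few were called in any knockdown. With siAtf3, siStat3, siKlf6 and siRest 0 of 37 were called by edgeR and 0 by DESeq2, with 2, 1, 4 and 1 at an unadjusted p below 0.05. Over all 14876 genes tested, 11.5% were called with siAtf3, 3.03% with siStat3, 1.85% with siKlf6 and 0.202% with siRest. Beyond the members, Cdkn2d, Tfdp1, Kif22 and Prc1 fell and E2f2, Chaf1b and Rpa3 rose with siAtf3, where 8 of 10 neuronal markers also fell, and Kif22 and Tfdp1 fell with siStat3. The smallest adjusted p of a member was 0.0975 with siAtf3, 0.177 with siStat3, 0.188 with siKlf6 and 0.734 with siRest. With the replicate number as a block in the fit, Ccnd1 was called as higher with siStat3 (log2 fold change 0.28, adjusted p = 0.0188 by edgeR).

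**Figure D3:**
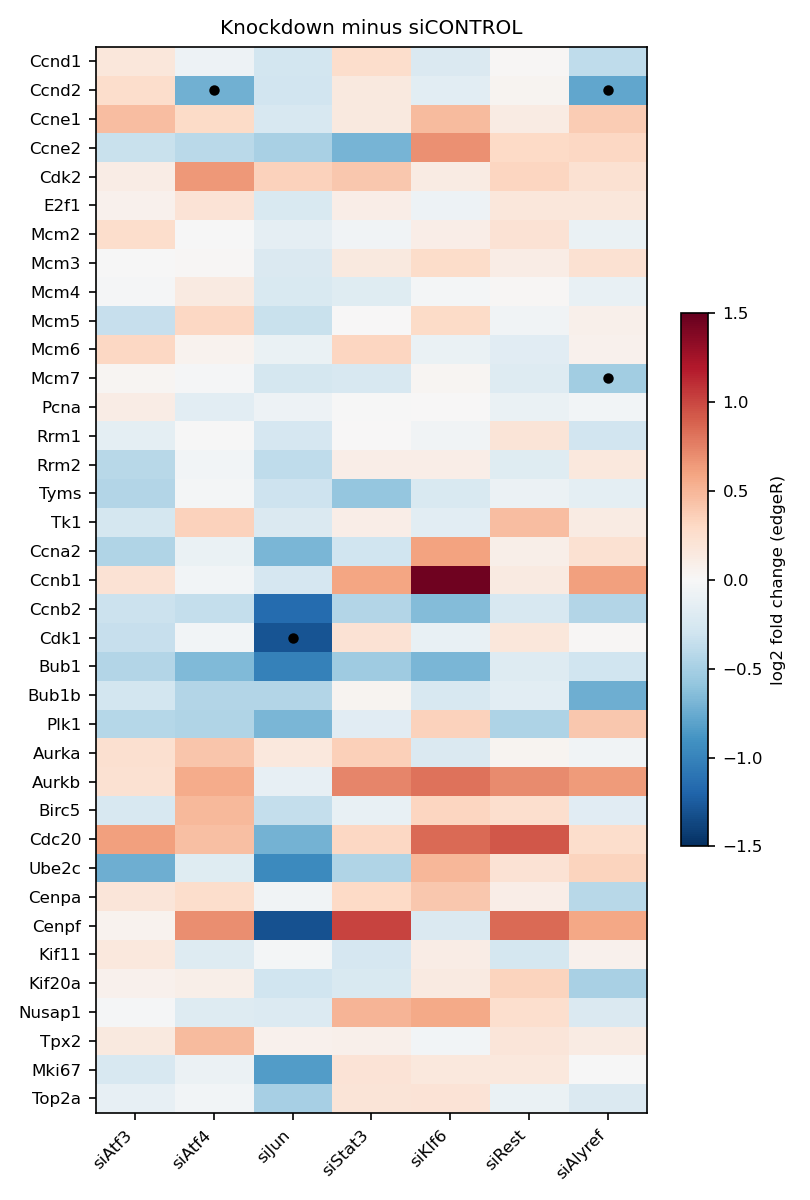
Log2 fold change of each gene in each knockdown relative to siCONTROL (blue lower, red higher in the knockdown; the scale ends at 1.5 either way, and every value lay within it). Black dots mark the 4 values with an adjusted p below 0.05, and the siJun column is blue in 34 of 37 rows.

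With siJun, 1 of 37 genes was called, Cdk1 as lower, against 7.78% of all genes called in either direction and 4.59% as lower. Cdk1 stood at 5.60, 4.68, 3.98 and 5.63 CPM with siJun, against 7.39, 12.8, 10.97 and 17.0 CPM in siCONTROL. Every siJun library lay below every siCONTROL library, and Cdk1 was 2.45-fold lower (log2 fold change -1.29 ± 0.36 SE, adjusted p = 0.0224). The call was lost without siCONTROL replicate 2 (adjusted p = 0.0536) or 4 (0.0946), or without siJun replicate 2 (0.0572) or 3 (0.0804).

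The other genes of the set mostly leaned the same way with siJun without passing. Of 37 log2 fold changes 34 were negative, all but those of Cdk2, Aurka and Tpx2, and the median was -0.27 against 0.00 over all genes. Ccnd1 passed only with the replicate number as a block in the fit (log2 fold change -0.27, adjusted p = 0.0125 by edgeR). Mki67 stood at 1.44, 2.40, 1.53 and 2.44 CPM with siJun, against 2.85, 3.01, 3.31 and 4.31 CPM in siCONTROL (log2 fold change -0.84 ± 0.31 SE, adjusted p = 0.0969). Top2a stood at 3.56, 4.86, 5.24 and 6.75 CPM with siJun, against 5.33, 5.59, 8.54 and 9.22 CPM in siCONTROL (-0.50 ± 0.23 SE, adjusted p = 0.23). Mki67 did not overlap between the groups and Top2a did. The summed level of Ccna2, Ccnb1, Ccnb2 and Cdk1 was 10.03 to 12.2 CPM with siJun and 13.8 to 30.2 CPM in siCONTROL. That sum includes the called gene Cdk1, so its separation is not separate evidence about the other genes. Taken singly, Ccna2 overlapped, at 1.94 to 4.79 CPM with siJun and 3.75 to 7.26 CPM in siCONTROL. Ccnb1 (1.03 to 2.72 and 1.56 to 2.64 CPM) and Ccnb2 (0.669 to 1.46 and 0.847 to 3.30 CPM) overlapped too. The sum of the licensing and fork genes also overlapped, at 198 to 243 CPM with siJun and 221 to 257 CPM in siCONTROL.

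In the wider lists with siJun, 3 of 40 mitotic genes fell and none rose, namely the kinesins Kif2c and Kif22 (log2 fold change -2.20 and -1.02) and the midzone protein Prc1 (-0.77), beside 1 of 37 replication genes, Pold1 (-0.85), and 1 of 15 G1 genes, Tfdp1 (-0.59). The satellite glia sum was 504 to 757 CPM with siJun and 763 to 887 CPM in siCONTROL, with Glul as the 1 called marker of 8 (log2 fold change -1.18) and a list median of 0.15. Of 10 neuronal markers Tubb3 and Nefl fell (-0.42 and -0.73) and Prph and Scn9a rose (0.27 and 0.33), the Schwann cell gene Pmp22 fell (-0.59) and the mural gene Rgs5 fell (-0.52). The macrophage sum was 22.4 to 33.4 CPM with siJun and 27.3 to 46.8 CPM in siCONTROL, and the fibroblast sum was 172 to 281 CPM with siJun and 136 to 279 CPM in siCONTROL, both overlapping. Their part in the lower Cdk1 was not tested.

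With siAtf4, 1 of 37 genes was called, Ccnd2 as lower, against 6.91% of all genes in either direction and 4.17% as lower. Ccnd2 stood at 9.31, 7.65, 7.34 and 8.46 CPM with siAtf4, against 15.4, 10.04, 16.2 and 12.9 CPM in siCONTROL, without overlap. It was 1.65-fold lower (log2 fold change -0.73 ± 0.21 SE, adjusted p = 0.0273). Without siCONTROL replicate 1 or 3 the adjusted p was 0.0776 or 0.107, and without siAtf4 replicate 2, 3 or 4 it was 0.0747, 0.0896 or 0.0567. Ccnd1 had 95.9 to 162 CPM with siAtf4 and 99.8 to 168 CPM in siCONTROL. Cdk2 was the next member, with a log2 fold change of 0.65 ± 0.22 (SE, adjusted p = 0.073), and it passed with the replicate number as a block (0.0296 by edgeR). The genes called in the wider cell cycle lists were Cdkn1a (-0.17), Lig1 (-0.42) and Orc5 (0.48). Of the neuronal markers 4 of 10 rose, with Isl1 in the lead (1.11), and their part in the lower Ccnd2 was not tested.

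With siAlyref, 2 of 37 genes were called, both as lower, against 4.26% of all genes in either direction and 3.37% as lower. Ccnd2 stood at 7.21, 6.05, 10.7 and 7.64 CPM with siAlyref, against 15.4, 10.04, 16.2 and 12.9 CPM in siCONTROL, and the groups overlapped in 1 library each. It was 1.72-fold lower (log2 fold change -0.78 ± 0.21 SE, adjusted p = 0.0278). Mcm7 stood at 30.9, 30.4, 28.3 and 27.0 CPM with siAlyref, against 42.9, 33.5, 49.2 and 41.3 CPM in siCONTROL, without overlap, and was 1.44-fold lower (-0.52 ± 0.15 SE, adjusted p = 0.0459). Neither call was firm. Ccnd2 passed only without siCONTROL replicate 2 or siAlyref replicate 3 among 8 repeats that left out a library (adjusted p up to 0.109), and did not pass with those 2 groups fitted alone (0.0992). Mcm7 lost its call in 7 of 8, passing only without siCONTROL replicate 2 (adjusted p up to 0.178), and also with no filter (0.0741), with the 2 groups alone (0.0588) and without the 2 shallowest libraries, siKlf6 replicate 1 and siRest replicate 1 (0.0517). Cdkn1a, at 533 ± 11.3 CPM with siAlyref and 820 ± 58.7 CPM in siCONTROL (SD, n = 4 each), was 1.54-fold lower (adjusted p = 1.09e-09) and was the gene of the wider cell cycle lists that passed. With the replicate number as a block, Ccnd1 was also called as lower with siAlyref (log2 fold change -0.36, adjusted p = 0.00193 by edgeR). Among the markers Tubb3, Sox10 and Apod were lower (log2 fold change -0.36, -0.45 and -0.89), and their part was not tested.

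Asked whether the 8 siRNA groups differed at all, 7 of 37 genes were called, against 34.3% of all genes. They were Ccnd2 (adjusted p = 0.000572), Mcm6 (0.0058), Ccne2 (0.0114), Cdk1 (0.0377), Mcm7 (0.038), Ccna2 (0.0427) and Mcm5 (0.0471). With the replicate number as a block in the edgeR fit, Ccnd1 (adjusted p = 8.25e-07) and Cdc20 (0.0335) were also called and Ccna2 was not (0.109). Group means over the 7 knockdowns and siCONTROL ran from 7.90 to 16.4 CPM for Ccnd2 and from 8.68 to 24.0 CPM for Ccne2. Mcm6 was highest with siStat3 and siAtf3, at 37.5, 25.8, 31.5 and 30.2 CPM and at 29.4, 35.9, 26.8 and 32.5 CPM, against 23.7, 20.3, 27.8 and 28.9 CPM in siCONTROL, and neither of these pairs passed alone (adjusted p = 0.177 and 0.0975). Leaving out single libraries gave 3 to 8 called genes, 3 without siAtf3 replicate 1 or 4 and 4 without siAlyref replicate 1 or 4, siJun replicate 1 or 2 or siKlf6 replicate 5, and 4 without the 2 shallowest libraries.

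Over the 28 knockdown libraries Pcna ran from 105 to 141 CPM (median 121) and from 117 to 134 CPM in siCONTROL. E2f1 ran from 9.37 to 23.7 CPM (median 16.7) in knockdown libraries and from 11.6 to 19.5 CPM in siCONTROL. Rrm2 ran from 5.34 to 18.8 CPM (median 9.67) in knockdown libraries and from 6.72 to 16.3 CPM in siCONTROL. These ranges overlapped throughout. Mcm2 ran from 6.79 to 21.3 CPM (median 11.7) in knockdown libraries and from 10.4 to 13.1 CPM in siCONTROL. Ccnb1 ran from 1.03 to 12.3 CPM (median 2.31) in knockdown libraries and from 1.56 to 2.64 CPM in siCONTROL, and its highest value came from siKlf6 replicate 1, the shallowest library of the series.

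**Figure D4:**
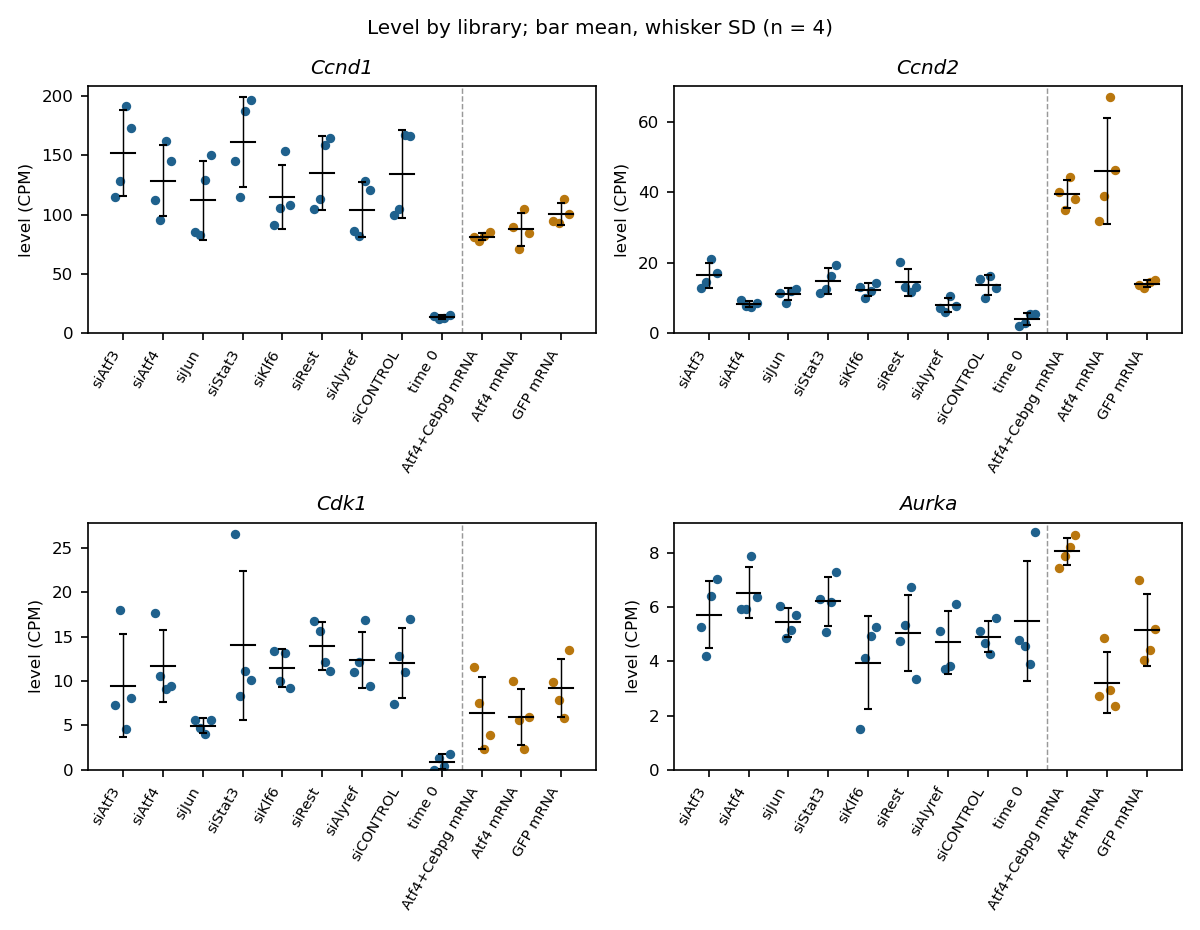
Level of Ccnd1, Ccnd2, Cdk1 and Aurka in each library, in CPM on a linear axis from 0, for the siRNA and time 0 groups (blue) and the mRNA groups (ochre, a separate table scaled apart). Bars are means and whiskers SD (n = 4). Ccnd2 stands at 31.9 to 66.8 CPM in both Atf4 groups and at 12.7 to 15.1 CPM with GFP mRNA.

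In the mRNA experiment 33 of the 37 genes passed the filter, and Mki67, Ccnb2, Cenpf and Kif11 did not. Against GFP mRNA, Ccnd2 was the member called in the main fit, and it rose with both Atf4 treatments. With Atf4 mRNA alone, 1 of 33 was called, as higher, against 4.84% of all 13857 genes in either direction and 2.76% as higher. Ccnd2 stood at 31.9, 38.9, 66.8 and 46.4 CPM with Atf4 mRNA, against 13.8, 12.7, 14.5 and 15.1 CPM with GFP mRNA. The lowest Atf4 library lay above every GFP library, and Ccnd2 was 3.30-fold higher (log2 fold change 1.72 ± 0.19 SE, adjusted p = 0.00024). With Atf4 and Cebpg mRNA together, 1 of 33 was called, as higher, against 24.6% of all genes in either direction and 12.4% as higher. Ccnd2 then stood at 40.1, 34.8, 44.4 and 38.1 CPM, against the same GFP libraries, 2.84-fold higher (1.50 ± 0.20 SE, adjusted p = 0.000107). Both calls held in all 8 repeats that left out a library and in the 5 other settings run. The siAtf4 and Atf4 mRNA comparisons share no library: Ccnd2 was 1.65-fold lower with siAtf4 than in siCONTROL and 3.30-fold higher with Atf4 mRNA than with GFP mRNA. The siAtf4 call was lost in 5 of 8 repeats that left out a library, and Ccnd2 was also lower with siAlyref (log2 fold change -0.78). A link between these results was not tested.

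The other D-type cyclin did not follow. Ccnd1 stood at 80.9, 78.0, 81.9 and 85.3 CPM with Atf4 and Cebpg mRNA, against 94.4, 93.1, 113 and 101 CPM with GFP mRNA, without overlap (log2 fold change -0.28 ± 0.11 SE, adjusted p = 0.0682). It passed with the replicate number as a block (adjusted p = 0.0258 by edgeR) and with the 2 groups alone (0.0391). With Atf4 mRNA alone it stood at 89.2, 71.3, 105 and 84.5 CPM, overlapping GFP mRNA. Of the wider lists, the CDK inhibitors had 1 higher and 1 lower of 6 tested in both comparisons: Cdkn2c rose (log2 fold change 0.77 with Atf4 mRNA, 1.69 with Atf4 and Cebpg mRNA) and Cdkn1a fell (-0.34 and -0.57). E2f3 fell in both (-0.53 and -0.64), and Kif22 fell in both (-0.70 and -1.40). These comparisons share the GFP libraries.

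Adding Cebpg to Atf4 mRNA was read directly against Atf4 mRNA. There 1 of 33 genes was called, as higher, against 6.6% of all genes in either direction and 4.5% as higher. Aurka, the kinase of centrosome maturation and spindle assembly, stood at 7.46, 7.88, 8.22 and 8.65 CPM with Atf4 and Cebpg mRNA, against 2.72, 4.85, 2.96 and 2.36 CPM with Atf4 mRNA. The groups did not overlap, and Aurka was 2.51-fold higher (log2 fold change 1.33 ± 0.27 SE, adjusted p = 0.00986). With GFP mRNA it stood at 7.01, 4.04, 4.40 and 5.20 CPM. The GFP mean lay between the means of the other groups, and the GFP libraries overlapped those with Atf4 mRNA. Neither Atf4 with Cebpg (0.66 ± 0.26 SE, adjusted p = 0.0807) nor Atf4 alone (-0.67 ± 0.28 SE, adjusted p = 0.197) passed against GFP mRNA. The Aurka call held in all 8 repeats that left out a library (adjusted p up to 0.0354). Aurka in time 0 and siRNA libraries had group means of 3.95 to 6.54 CPM.

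Of the wider mitotic list, 2 of 30 rose and 1 fell in this comparison, Cks2 (log2 fold change 1.71) and the cyclin Ccnf (1.07) against Kif22 (-0.71), and 3 of 36 replication genes rose, Mcm10 (1.41), Chaf1b (1.03) and Rfc1 (0.51). Cdkn2c was also higher (0.92). Against GFP mRNA, Atf4 with Cebpg had 5 of 30 mitotic genes higher and 3 lower, among them Kif2c (1.50), Ccnf (1.49), Ncapg (1.42) and Kif22 (-1.40). Of 13 G1 genes 2 were higher, E2f7 (2.42) and Rb1 (0.55), and 2 lower, E2f3 (-0.64) and Cdk4 (-0.23). Of 36 replication genes 3 were higher, Chaf1b (0.88), Rfc1 (0.56) and Fen1 (0.41), and 0 lower. Over all genes in that comparison 24.6% were called in either direction and 12.4% as higher. Marker values are given beside them. The myeloid marker sum was 27.1 to 43.9 CPM with Atf4 and Cebpg mRNA, 14.997 to 29.6 CPM with Atf4 mRNA and 12.9 to 21.0 CPM with GFP mRNA, and the fibroblast gene Lum was 12.7-fold higher with Atf4 and Cebpg mRNA than with Atf4 mRNA. The satellite glia sum was 453 to 578 CPM with Atf4 and Cebpg mRNA, 494 to 582 CPM with Atf4 mRNA and 610 to 680 CPM with GFP mRNA. Its list median was 0.11 against GFP mRNA, with Glul lower (-1.22) and Apoe higher (0.70). The endothelial and mural sum was 267 to 314 CPM with Atf4 and Cebpg mRNA, 240.3 to 283 CPM with Atf4 mRNA and 185 to 260.2 CPM with GFP mRNA. Atf4 with Cebpg did not overlap GFP mRNA in that sum, and Pecam1, Cdh5 and Kdr were higher (0.59, 0.61 and 0.50), as Cdh5 was with Atf4 mRNA alone (0.36). Of the Schwann cell markers Ngfr and Ncmap rose (0.50 and 1.67) and Pmp22 fell (-0.53) with Atf4 and Cebpg mRNA against GFP mRNA. Of 10 neuronal markers in the same comparison Tubb3 and Scn9a fell (-0.68 and -0.37) and Rbfox3 rose (0.36), with a list median of 0.02. The part of these cell types in the Ccnd2 and Aurka results was not tested.

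Across the 3 mRNA groups, 2 of 33 genes differed, Ccnd2 (adjusted p = 7.89e-05) and Aurka (0.00964), against 20.8% of all genes. For the others with values per library the 3 groups are given together. Mki67, which was not tested, ran from 0.954 to 3.32 CPM over the 12 libraries (median 1.64), Top2a from 1.29 to 7.20 CPM (median 3.68) and Cdk1 from 2.34 to 13.5 CPM (median 6.75). Rrm2 ran from 4.32 to 10.7 CPM (median 7.28), Mcm2 from 6.76 to 17.9 CPM (median 11.1) and Pcna from 114 to 133 CPM (median 122). E2f1 ran from 9.58 to 16.8 CPM (median 13.7) and Ccnb1 from 0.231 to 2.99 CPM (median 2.16).

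How the genes varied together was read from 32 siRNA libraries, as each library's deviation from its group mean in log2 CPM. Correlation of single members with the mean of all 37 ran from -0.05 (Mcm7) to 0.66 (Rrm2), with a median of 0.30, and each member is part of that mean. Kif11, Top2a, Mcm6 and Mcm5 stood near the top (0.63, 0.63, 0.64 and 0.62), while Ccne2 (-0.01), Bub1b (0.06) and Ccnd2 (0.07) varied apart. Of genes outside the set, AV039307 (0.70), Axin1 (0.69), Gm13530 (0.68), Lrp4 (0.67) and Ctsc (0.67) were the most like that mean, followed by Tnc (0.64), BC030867 (0.64), Pros1 (0.62), Mettl16 (0.62) and Sdk1 (0.62). The median correlation of the fibroblast markers was 0.32 and of the satellite glia markers 0.28, against -0.09 for both the neuronal and the endothelial and mural markers. It was 0.19 for the red cell, 0.16 for the myeloid, 0.01 for the Schwann cell and -0.08 for the macrophage markers. These points share libraries and depth and are given as a description over 32 libraries.

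Some members share sequence with other genes, which can move counts between them. In the GENCODE annotation of GRCm38, Ccnd1 shares 23.4% of its exon bases with LTO1 on the opposite strand, Kif20a 29.3% with Cdc23, Ube2c 22.8% with Tnnc2, Ccne2 17.4% with Ints8 and Ccna2 12.5% with Exosc9, and Ccnd2 overlaps the antisense transcripts 9330179D12Rik and Gm43126. The kit marks strand, but whether counting used it is not given in the sources used here. Ccnb1 has pseudogenes at up to 99.2% identity, Pcna has Pcna-ps2 at 99.2% and Mcm7 has Gm5487 at 97.7%, so these levels are uncertain to that extent.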

How the data were processed

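Per the submitters' processing notes the authors used kallisto and GRCm39. They deposited expected counts, which are estimates with decimals, as a table of 36 siRNA and time 0 libraries and another of 12 mRNA libraries. The deposited tables are named as scaled, but neither the kallisto version nor the method of scaling is given in the sources used here. Small values depended on transcript length (the most frequent was 3.65 for 500 to 1000 bases and 0.45 for 4000 to 6000 bases in the siRNA table), so the values are taken as weighted by length and CPM as close to a level per length. All 48 columns were matched by name and 0 were left unused. Symbols came from the GENCODE annotation of GRCm38 (32470 of 34183 genes).

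Expected counts were rounded, filtered by filterByExpr, scaled by TMM and tested in edgeR 4.0.16 (quasi-likelihood F test, R 4.3.3), with Benjamini-Hochberg adjustment over all genes tested and a threshold of 0.05. Culture was fitted on siCONTROL and time 0 (13448 genes), the knockdowns with siCONTROL (14876) and the mRNA groups together (13857). SE is the absolute log2 fold change divided by the square root of the F statistic, an approximation that is rough for genes with few counts. SE and p-values cover the spread between libraries. The floor of 3 counts used for Aurkb is in scaled counts, which are not reads, so it gives a rough guide and no strict bound. Alternatives were DESeq2 1.42.0, its size factors, no filter, the 2 groups alone, the replicate number as a block, each library left out and, chosen after the data were seen, the 2 shallowest libraries left out. Near copies were found with blastn 2.17.0 at 95% identity or more.

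Named genes follow a rule: values per library or their range for Mki67, Top2a, Cdk1, Ccnb1, Rrm2, Mcm2, Pcna, Ccnd1, Ccnd2 and E2f1, values per library for the called members with the largest changes, and up to 4 called genes per wider list. Other members shown library by library (Mcm3, Aurkb, Mcm6 with siStat3 and siAtf3), and Cdkn1b, Rpa3, Pecam1, Cdh5 and the other markers named, were chosen after their values were seen. The wider lists hold 103 pathway and 70 marker genes, of which 69 markers were matched. The rule for the members names the genes and uses no measured value, but the members and lists were chosen with earlier results of these data known.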

Additional observations from a re-analysis of the deposited data

Results flagged for a closer look

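In 5 of 143 pairs of a gene and a group of 4 libraries, over the members given by library, 1 library stood apart from the other 3 by the gap test of Dixon. Chance flags about 1 in 20 groups. Ccnd2 was 20.1 CPM in siRest replicate 1, against 11.8 to 13.0 CPM in the other 3 libraries. Mcm2 was 21.3 CPM in siRest replicate 4, against 9.80 to 11.6 CPM in the others. Cdk1 was 26.5 CPM in siStat3 replicate 1, against 8.30 to 11.2 CPM. Mcm2 was 7.19 CPM in siAlyref replicate 2, against 11.9 to 12.8 CPM. Mki67 was 5.02 CPM in siAlyref replicate 4, against 2.81 to 2.99 CPM. The siRest replicate 1 library was among the 2 shallowest. None of these pairs of gene and group was a called result.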

How the results depend on the processing

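Of 208 repeats of the called gene results without 1 library, 175 kept the call, 33 lost it and 0 changed direction, and of 115 repeats under other settings 110 kept it and 5 lost it. Without single libraries the number of members called ran from 16 to 21 in culture (19 with all libraries), 0 to 2 with siAtf4 (1), 0 to 1 with siJun (1), 0 to 2 with siAlyref (2), 3 to 8 for any difference among siRNA groups (7), 1 to 2 for Atf4 and Cebpg mRNA against GFP mRNA (1) and against Atf4 mRNA (1), 2 to 3 for any difference among mRNA groups (2) and 1 with Atf4 mRNA, and it stayed at 0 with siAtf3, siStat3, siKlf6 and siRest. The siAlyref count of 2 became 1 with no filter, 0 with those 2 groups alone and 1 without the 2 shallowest libraries. The count of 7 for any siRNA difference became 4 with no filter and 4 without those 2 libraries. Atf4 and Cebpg mRNA against GFP mRNA gave 2 with the 2 groups alone. The causes were not tested. In culture DESeq2 gave 20 and no filter 24. Depth limits the mitotic genes most, since several had under 10 counts in all at time 0.

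Same-numbered libraries deviated together only weakly: the correlation of deviations from group means was as low as 0.04 for a pair in culture. No comparison had every pair over 0.1, and the main fits did not pair the samples by number. A weak correlation over all genes tested cannot show that the numbers share nothing. In each of the 11 comparisons 3 or 4 pairs correlated best with their own number. With the replicate number as a block, 2 members were called with siAtf4, 2 with siJun, 1 with siStat3 and 2 for Atf4 and Cebpg mRNA against GFP mRNA, where the gene gained was Cdk2 with siAtf4 (log2 fold change 0.66) and Ccnd1 in the others, and 20 in culture (Kif20a gained), 3 with siAlyref (Ccnd1 gained, -0.36, adjusted p = 0.00193) and 8 for any siRNA difference, where Ccnd1 (adjusted p = 8.25e-07) and Cdc20 (0.0335) were gained and Ccna2 (0.109) was lost. It gave 0 with siAtf3, siKlf6 and siRest.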

Other observations

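Ccnd1 followed the replicate number across groups. In all 7 of the siRNA-table groups at 42 h that are numbered 1 to 4, both libraries numbered 3 and 4 lay above both numbered 1 and 2. Over these groups the 14 libraries numbered 3 or 4 ran from 120.5 to 196 CPM and the 14 numbered 1 or 2 from 82.2 to 146 CPM. The labels do not say what a number shares, and the pattern was noticed after the values were seen. Tpx2 lay lower in libraries 3 and 4 than in 1 and 2 in 5 of the 7 groups, and Birc5 in all 3 mRNA groups.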
